A study of Rattus norvegicus with 16 samples.

Results

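The 10 core circadian clock genes Arntl, Clock, Npas2, Per1, Per2, Per3, Cry1, Cry2, Nr1d1 and Nr1d2 were taken by symbol from the 17055 gene symbols counted in each library, and all 10 were found. Expression was measured by sequencing of polyadenylated RNA in 16 libraries of rat liver, each a pool of 3 animals, with 4 libraries in each of 4 groups. All rats were male Sprague-Dawley animals, 10 weeks old, ventilated under general anesthesia with 100% oxygen and opened by celiotomy, and liver was taken 8 h later. In the isoflurane groups the inhaled agent isoflurane was used both to induce and to maintain anesthesia, whereas in the propofol groups anesthesia was induced with ketamine-xylazine by intraperitoneal injection and maintained with intravenous propofol. Within each anesthetic, sepsis was modeled by cecal ligation and puncture (CLP), and controls had a sham operation in which the cecum was lifted out and returned. Libraries 1 to 4 were Isoflurane-Sepsis, libraries 5 to 8 isoflurane control, libraries 9 to 12 Propofol-Sepsis and libraries 13 to 16 propofol control. A comparison of the anesthetics is therefore also a comparison of the induction drugs, and no group without anesthesia and surgery was analysed here. Sham and CLP animals were assigned alternately within each anesthetic. The hour of day at which livers were taken is not given in the sources used here. A pool gives no spread between single animals, so the error of every value below is that between pools.

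The molecular clock is a transcriptional feedback loop that runs in nearly every cell of the body, including hepatocytes. Arntl (also named Bmal1) pairs with Clock, or with its relative Npas2, and the pair binds E-box sequences and activates the Per and Cry genes. The PER and CRY proteins return to the nucleus and repress that activator, so their own genes are turned down in the later part of the cycle. A second loop is run by the nuclear receptors Nr1d1 and Nr1d2 (REV-ERB alpha and beta), which are themselves activated through E-boxes and which compete with ROR receptors, such as Rora, for ROR response elements in Arntl. In liver the loop sets daily rhythms of glucose, lipid, bile acid and drug metabolism, and Arntl transcripts run roughly in antiphase to those of the Per genes and Nr1d1.

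The start-site sequences of some members on opposite sides of the loop are shown because they held letters that match the elements by which the loop is described. A RefSeq entry of 250 bases before to 50 bases after a start site, in build GRCr8, was matched for 9 of the 10 members and gave 11 promoters. Cry1 had no entry. Each was searched on both strands for the E-box CACGTG, the E'-box CACGTT, the D-box TTATGTAA and the 7-base 3' part of the ROR response element, TAGGTCA. These 4 motifs share no match with each other in the members. The 4 promoters printed were chosen after the matches were seen, with the match in capitals. Arntl held TAGGTCA starting 16 bases before its start site. Per2 held the D-box 192 bases and the E'-box 62 bases before its start site. Cry2 held the E'-box on the other strand, and the second start site of Nr1d1 an E-box.
Arntl (chr1:176766078-176766377, plus strand): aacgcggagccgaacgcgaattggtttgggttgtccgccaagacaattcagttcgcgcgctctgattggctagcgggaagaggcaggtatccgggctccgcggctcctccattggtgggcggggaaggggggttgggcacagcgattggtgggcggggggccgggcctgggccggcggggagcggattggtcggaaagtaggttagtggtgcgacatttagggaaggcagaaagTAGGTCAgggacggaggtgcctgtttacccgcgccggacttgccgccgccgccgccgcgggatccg
Per2 (chr9:99496944-99497243, minus strand): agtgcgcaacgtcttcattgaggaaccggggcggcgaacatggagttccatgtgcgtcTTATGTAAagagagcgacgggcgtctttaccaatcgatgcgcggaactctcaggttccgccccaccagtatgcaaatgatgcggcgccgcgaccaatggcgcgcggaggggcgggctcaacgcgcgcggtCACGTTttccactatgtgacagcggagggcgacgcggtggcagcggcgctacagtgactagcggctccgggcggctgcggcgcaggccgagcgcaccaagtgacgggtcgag
Cry2 (chr3:98860388-98860687, minus strand): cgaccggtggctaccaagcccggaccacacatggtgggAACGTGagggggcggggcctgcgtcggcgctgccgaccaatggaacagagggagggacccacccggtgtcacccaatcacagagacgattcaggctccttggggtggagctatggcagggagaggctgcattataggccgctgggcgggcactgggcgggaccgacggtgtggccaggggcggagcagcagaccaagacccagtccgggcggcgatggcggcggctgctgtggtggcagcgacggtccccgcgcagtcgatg
Nr1d1, second start site (chr10:84229405-84229704, minus strand): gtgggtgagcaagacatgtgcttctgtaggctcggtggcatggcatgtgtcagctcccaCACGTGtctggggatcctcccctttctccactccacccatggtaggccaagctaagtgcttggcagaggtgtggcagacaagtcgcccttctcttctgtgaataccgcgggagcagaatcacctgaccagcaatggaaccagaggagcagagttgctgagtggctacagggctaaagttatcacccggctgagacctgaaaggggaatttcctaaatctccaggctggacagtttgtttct
The first start site of Nr1d1 held an E'-box on the other strand as well, and the promoters of Clock, Npas2, Per1, Per3 and Nr1d2 held none of the 4 motifs within these windows. Of 33469 promoters of the same 300 bases, 6.42% held the E-box, 4.83% the E'-box, 0.893% the D-box and 2.63% the ROR motif. A match describes letters in the window and is no measure of binding.

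The libraries held between 14199422 and 49937173 reads assigned to genes. Levels are given as CPM, a read count divided by the scaled library size, after TMM scaling over the 16 libraries, with factors between 0.930 and 1.09. TMM factors were below 1 in every isoflurane library and above 1 in every propofol library, a mean log2 difference of -0.14. The deposited names of the isoflurane and propofol libraries carry different prefixes, so handling by batch and anesthetic cannot be told apart. All 8 hepatocyte markers were found, and their summed levels were higher in the isoflurane libraries without overlap, at 132192 to 142323 CPM in isoflurane control and 113988 to 132022 CPM in Isoflurane-Sepsis against 97248 to 105722 CPM in propofol control and 95140 to 103572 CPM in Propofol-Sepsis. Alb held the most reads of the 8, 944896 to 4510819 a library, and weighs most in these sums. Tested singly, 6 of the 8 were called higher and 1 lower in isoflurane control than in propofol control. Between the septic groups 3 were called higher and 1 lower under isoflurane. The 12 brain markers summed to 382 CPM in library 10 of Propofol-Sepsis against 8.67 to 31.2 CPM in the other 15 libraries, so library 10 stood apart. Several values that use Propofol-Sepsis are given with and without it, and others may also move without it. Summed neutrophil and monocyte markers, of which 7 of 8 were found, were 15.5 to 17.9 CPM in isoflurane control, 34.3 to 111 CPM in Isoflurane-Sepsis, 16.6 to 23.5 CPM in propofol control and 35.0 to 49.1 CPM in Propofol-Sepsis. Of the genes listed, Mpo and Ly6g6d were at 0 in 11 of 16 libraries each. The 8 endothelial and stellate markers summed to 415 to 453, 276 to 528, 417 to 471 and 333 to 352 CPM in the same order of groups. Whether cell composition took part in the clock values was not tested, and in bulk liver fewer cells of a type and less RNA per cell cannot be told apart.

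Arntl, the partner shared by both activating pairs of the loop, covered levels from 1.17 to 44.9 CPM. In isoflurane control it was at 11.2, 6.25, 10.5 and 10.1 CPM in libraries 5 to 8, and in Isoflurane-Sepsis at 12.3, 28.3, 44.9 and 38.6 CPM in libraries 1 to 4. In propofol control it was at 3.89, 1.17, 1.68 and 5.17 CPM in libraries 13 to 16, and in Propofol-Sepsis at 12.1, 9.29, 10.5 and 8.44 CPM in libraries 9 to 12. The septic libraries lay above the controls under each anesthetic without overlap, and the isoflurane controls lay above every propofol control. Means and SDs over 4 libraries were 9.50 ± 2.21 CPM in isoflurane control, 31.0 ± 14.2 CPM in Isoflurane-Sepsis, 2.98 ± 1.88 CPM in propofol control and 10.1 ± 1.58 CPM in Propofol-Sepsis. In order, Isoflurane-Sepsis was highest, Propofol-Sepsis and isoflurane control overlapped, and propofol control was lowest. The lowest value, in library 14, rested on 20 reads, and library 4 by comparison held 655. Without library 10 the Propofol-Sepsis mean was 10.3 ± 1.83 CPM.

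Clock and Npas2, the alternative partners of Arntl, had their lowest means in propofol control and differed in spread. Clock was at 6.07, 8.27, 8.73 and 7.58 CPM in isoflurane control and at 8.58, 10.3, 13.3 and 11.3 CPM in Isoflurane-Sepsis. It was at 5.77, 4.14, 4.94 and 5.51 CPM in propofol control and at 10.9, 16.2, 8.67 and 7.03 CPM in Propofol-Sepsis. The 2 septic groups overlapped, and propofol control lay below the isoflurane controls without overlap. Library 10 had the highest Clock of all 16 libraries, and without it the Propofol-Sepsis mean moved from 10.7 ± 3.99 to 8.87 ± 1.94 CPM. Npas2 was at 1.79, 1.03, 2.47 and 1.66 CPM in isoflurane control and at 0.892, 5.56, 9.77 and 3.59 CPM in Isoflurane-Sepsis, where library 1 lay below all 4 controls. It was at 0.843, 0.292, 0.192 and 1.26 CPM in propofol control and at 1.42, 0.762, 0.807 and 0.983 CPM in Propofol-Sepsis, where the groups overlapped. Npas2 rested on 4 to 189 reads a library, so its low values carry the widest counting error of the members.

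The 3 Per genes encode the period proteins, repressors of the Arntl and Clock pair, and they did not share 1 pattern. Per2 was at 12.9, 19.4, 17.2 and 14.2 CPM in isoflurane control and at 7.83, 5.56, 3.52 and 2.94 CPM in Isoflurane-Sepsis. It was at 17.2, 19.9, 37.2 and 20.0 CPM in propofol control and at 12.1, 20.7, 12.8 and 13.6 CPM in Propofol-Sepsis. Every Isoflurane-Sepsis library lay below all 12 libraries of the other groups, whereas the 2 propofol groups overlapped through library 10, at 20.7 CPM. Without library 10 the Propofol-Sepsis mean was 12.9 ± 0.744 CPM, and the remaining 3 libraries lay below all 4 propofol controls. Per3 was at 16.6, 22.2, 18.1 and 19.8 CPM in isoflurane control and at 16.8, 12.3, 6.78 and 6.89 CPM in Isoflurane-Sepsis. It was at 27.2, 31.0, 32.0 and 30.1 CPM in propofol control and at 19.2, 28.4, 20.1 and 21 CPM in Propofol-Sepsis. Propofol control had the highest mean Per3, 30.1 ± 2.07 CPM, above all isoflurane controls, and it met Propofol-Sepsis only through library 10. Per1, which is also an acute target of glucocorticoid and cyclic AMP signals, went the other way. It ranged from 52.3 to 63.6 CPM in isoflurane control and from 78.0 to 85.0 CPM in Isoflurane-Sepsis, and from 32.7 to 61.2 CPM in propofol control and from 68.6 to 93.4 CPM in Propofol-Sepsis. Septic libraries were thus above the controls of their own anesthetic for Per1. The Isoflurane-Sepsis libraries lay below all isoflurane controls for Per2 and, apart from library 1, for Per3. Without library 10 the Per1 range in Propofol-Sepsis was 68.6 to 70.4 CPM.

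The cryptochromes Cry1 and Cry2 bind the PER proteins and hold the activator in its repressed state. Cry2 was at 12.5, 16.1, 15.4 and 13.1 CPM in isoflurane control and at 8.13, 6.59, 4.60 and 4.06 CPM in Isoflurane-Sepsis. It was at 17.1, 16.3, 21.1 and 18.5 CPM in propofol control and at 9.82, 16.2, 12.8 and 11.6 CPM in Propofol-Sepsis. The order of Cry2 was the mirror of that of Arntl, with propofol control highest, isoflurane control and Propofol-Sepsis overlapping, and Isoflurane-Sepsis lowest without overlap. Without library 10, Cry2 in Propofol-Sepsis was 11.4 ± 1.48 CPM in place of 12.6 ± 2.71 CPM. Cry1 overlapped between all neighboring groups, with means from 8.53 ± 3.31 CPM in Isoflurane-Sepsis to 11.9 ± 2.69 CPM in Propofol-Sepsis, the latter 10.6 ± 1.18 CPM without library 10.

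For the nuclear receptors of the second loop no group stood apart from its neighbors. Nr1d1 was at 64.9, 57.4, 61.4 and 70.6 CPM in isoflurane control and at 66.6, 83.1, 119 and 47.8 CPM in Isoflurane-Sepsis. It was at 107, 86.7, 52.2 and 112 CPM in propofol control and at 85.8, 77.2, 90.0 and 83.6 CPM in Propofol-Sepsis. Isoflurane-Sepsis held both the highest and the lowest Nr1d1 of the study, and its neighbors in the order of means overlapped throughout. Nr1d2 stayed between 27.6 and 43.0 CPM in all 16 libraries, with library 10 highest and 39.5 CPM the next. Nr1d1 overlaps Thra on the opposite strand, and whether the counting used strand is not stated, so reads from the stretch they share cannot be told apart.

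**Figure D1:**
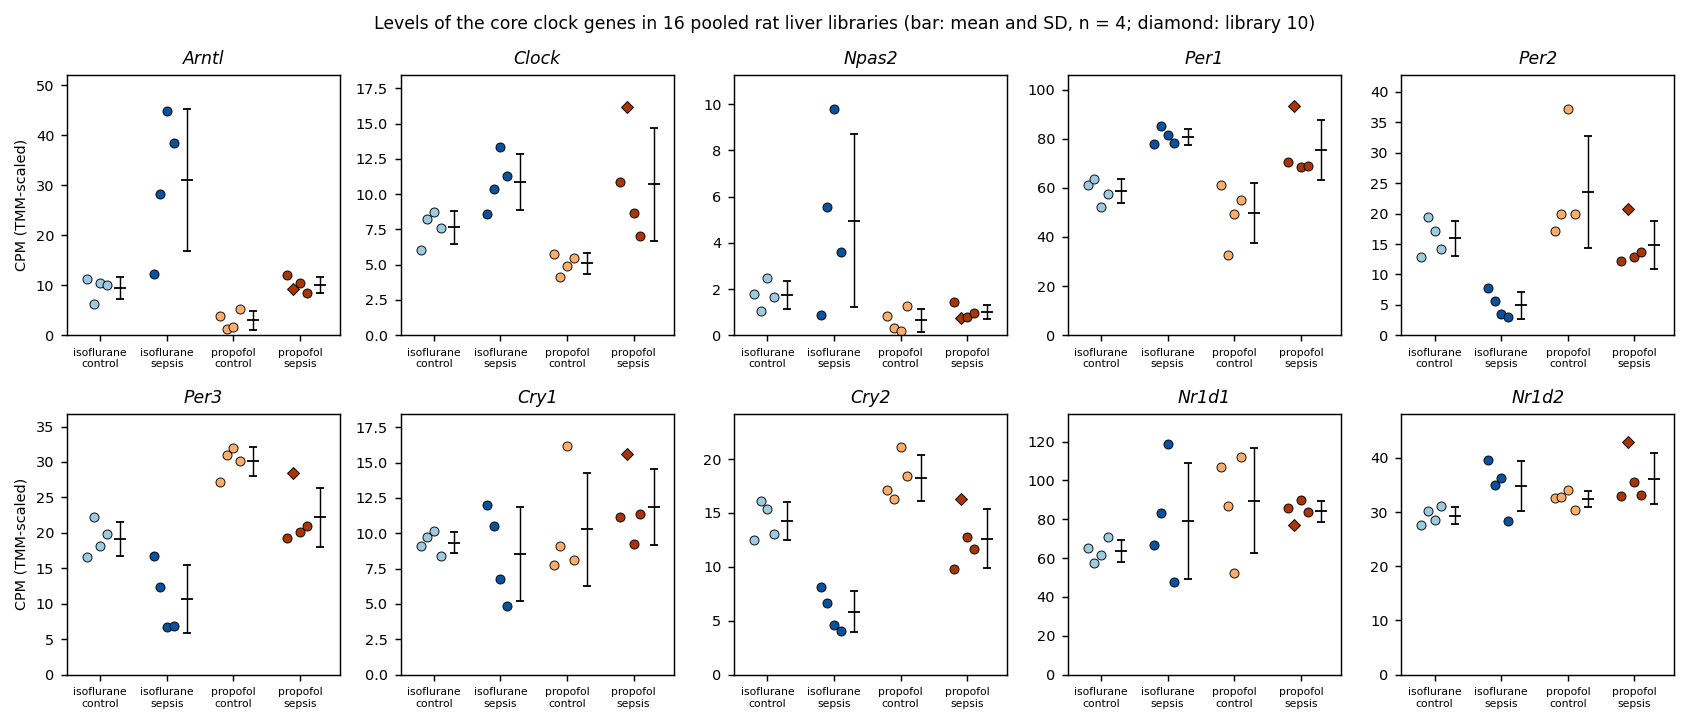
CPM after TMM scaling of each core clock gene (y axis, from 0) in the 4 libraries of each group (x axis), with the mean and SD of the 4 beside them and library 10 drawn as a diamond. Arntl was 31.0 ± 14.2 CPM in Isoflurane-Sepsis and 2.98 ± 1.88 CPM in propofol control, and Per2 and Cry2 show the opposite order with 4.96 and 5.85 CPM as their lowest group means.

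In liver under isoflurane, sepsis went with more Arntl, Clock and Per1 transcript and with less Per2, Per3 and Cry2. Arntl rose 3.31-fold, a log2 fold change of 1.73 ± 0.37 (SE, adjusted p = 0.00468, higher in 4 of 4 libraries than any control). Per2 fell to 0.316 of control, a log2 fold change of -1.66 ± 0.28 (adjusted p = 0.00145), and Cry2 to 0.415 of control, at -1.27 ± 0.20 (adjusted p = 0.00116). Per3 fell less, with a log2 fold change of -0.83 ± 0.27 (adjusted p = 0.0286). Clock and Per1 rose by log2 fold changes of 0.53 ± 0.17 and 0.48 ± 0.08, with adjusted p of 0.0258 and 0.00137. Npas2 had a log2 fold change of 1.53 ± 0.58 and Nr1d2 of 0.26 ± 0.10, and both missed the threshold of 0.05 with adjusted p of 0.0537 and 0.0518. Nr1d1, at 0.33 ± 0.24, and Cry1, at -0.11 ± 0.24, did not pass either.

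Under isoflurane 6 of 10 members were thus called against 50% of the 10361 genes tested, with 3 higher against 25.7% and 3 lower against 24.4%. The share of members called was near that of all genes. The median absolute log2 fold change was 0.68 over the 10 members and 0.36 over all genes tested. Arntl, Per1, Per2 and Cry2 were called under all 13 alternatives. Clock was lost without library 3, 5 or 8 (adjusted p = 0.0619, 0.0680 and 0.0658), and Per3 without library 3, 4, 6, 7 or 8 (adjusted p between 0.0546 and 0.0739). DESeq2 called 8 members, Npas2 and Nr1d2 in addition, with 52.1% of all genes called. The fit of all 16 libraries called these 2 but not Clock (adjusted p = 0.0564), with 54.4% of all genes called. Npas2 was called without library 1 (log2 fold change 1.89, adjusted p = 0.00313), and Nr1d1 and Nr1d2 without library 4 (0.51 and 0.34, adjusted p = 0.0468 and 0.00578).

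Under propofol Arntl, Clock and Per1 rose with sepsis, and Per3 and Cry2 fell. Arntl rose 3.37-fold, a log2 fold change of 1.75 ± 0.37 (adjusted p = 0.00456), and Clock 2.11-fold, at 1.07 ± 0.25 (adjusted p = 0.00731). Per1 rose by 0.61 ± 0.18 on the log2 scale (adjusted p = 0.0220). Cry2 fell to 0.694 and Per3 to 0.740 of control, log2 fold changes of -0.53 ± 0.15 and -0.43 ± 0.13 with adjusted p of 0.0194 and 0.0223. Per2 had a log2 fold change of -0.67 ± 0.26 and missed the threshold (adjusted p = 0.0629). Npas2 at 0.61 ± 0.50, Cry1 at 0.21 ± 0.25, Nr1d1 at -0.09 ± 0.20 and Nr1d2 at 0.16 ± 0.10 were not called.

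In all, 5 of 10 members were called under propofol against 42.1% of 10348 genes, with 3 higher against 20.4% and 2 lower against 21.7%. With library totals alone the share of called genes that were higher moved from 48.4% to 38.3%. Here too the members' share was near the background, and their median absolute log2 fold change was 0.57 against 0.27 over all genes. Arntl, Clock and Per1 kept their calls with each library left out, library 10 included, where Clock fell to a log2 fold change of 0.78 and Per1 to 0.48. Without library 10, Per3 moved to -0.58 and Cry2 to -0.68 (adjusted p = 0.000309 and 0.00131). Cry1 then moved to 0.04 and Nr1d2 to 0.06, and neither was called. Per2 was called without library 10 (log2 fold change -0.88, adjusted p = 0.0156), without library 13 (-0.79, adjusted p = 0.0454), by DESeq2 (-0.66, adjusted p = 0.0258) and with library totals alone (-0.72, adjusted p = 0.0481). Per3 was lost without library 9, 11, 12, 14 or 15 (adjusted p between 0.0526 and 0.0565) and in the fit of all 16 libraries (adjusted p = 0.136), and Cry2 without library 15 (adjusted p = 0.0520). Nr1d1 was called lower without library 15 (log2 fold change -0.28, adjusted p = 0.0435), whose Nr1d1 of 52.2 CPM was the lowest of its group, and its estimate crossed 0 without library 13 or 16.

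The control groups were compared because they had the same sham operation and differed in the anesthetic regimen. In the isoflurane controls Arntl was 3.20-fold higher than in the propofol controls, a log2 fold change of 1.68 ± 0.34 (adjusted p = 0.00285). Its partners Npas2 and Clock were higher by 1.42 ± 0.44 and 0.59 ± 0.14 on the log2 scale (adjusted p = 0.0227 and 0.00524). Per3 was lower at 0.640 of the propofol control level, a log2 fold change of -0.64 ± 0.09 (adjusted p = 0.000280), and Cry2 at 0.780, with -0.36 ± 0.11 (adjusted p = 0.0187). Per2 at -0.58 ± 0.22, Nr1d1 at -0.48 ± 0.19 and Nr1d2 at -0.14 ± 0.06 lay on the lower side with adjusted p of 0.0591, 0.060 and 0.0716. Per1 at 0.25 ± 0.15 and Cry1 at -0.15 ± 0.21 were not called.

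Between the controls 5 of 10 members were called against 43.3% of 10314 genes, with 3 higher against 21.6% and 2 lower against 21.7%. The median absolute log2 fold change was 0.53 over the members and 0.22 over all genes. Arntl and Per3 were called under all 13 alternatives. They were the only members called when all 16 libraries entered 1 fit, in which 26.3% of all genes were called. Clock, Npas2 and Cry2 had adjusted p of 0.0680, 0.104 and 0.171 in that fit. Npas2 was lost without library 7 or 14 (adjusted p = 0.0557 and 0.0604) and Cry2 without library 5 or 8 (adjusted p = 0.0584 and 0.0641). Nr1d1 was called lower without library 15 (log2 fold change -0.68, adjusted p = 0.000220) and by DESeq2 with all 8 libraries (-0.49, adjusted p = 0.0260), Per2 without library 13 or 16 (adjusted p = 0.0334 and 0.0485) and Nr1d2 without library 16 (adjusted p = 0.0343). Of the 8 hepatocyte markers, 6 were higher and 1 lower in the isoflurane controls, and their part in the clock values was not tested. Scaling mattered here. With library totals alone the median of all genes moved from 0.00 to -0.15, and 22.9% of called genes in place of 49.8% were higher. Per2, Nr1d1 and Nr1d2 were then also called lower, with 48.1% of all genes called.

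Between the septic groups the activators Arntl and Npas2 were higher under isoflurane, and Per2, Per3 and Cry2 lower. Arntl was 3.10-fold higher in Isoflurane-Sepsis than in Propofol-Sepsis, a log2 fold change of 1.63 ± 0.35 (adjusted p = 0.0189), and Npas2 5.00-fold higher, at 2.32 ± 0.61 (adjusted p = 0.0317). The septic groups overlapped for Npas2, since library 1, at 0.892 CPM, lay below libraries 9 and 12 of Propofol-Sepsis, at 1.42 and 0.983 CPM. Per2 was at 0.336 of the Propofol-Sepsis level, a log2 fold change of -1.57 ± 0.31 (adjusted p = 0.0166). Cry2 was at 0.465 and Per3 at 0.483 of that level, log2 fold changes of -1.11 ± 0.24 and -1.05 ± 0.29 with adjusted p of 0.0205 and 0.0379. Clock, at 0.03 ± 0.26, and Per1, at 0.10 ± 0.12, were not called (both turned negative, -0.12 and -0.04, with library totals alone), nor were Cry1 at -0.48 ± 0.28, Nr1d1 at -0.09 ± 0.23 and Nr1d2 at -0.05 ± 0.13.

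These 5 of 10 members stand against 19.3% of 10272 genes called, 2 higher against 10.6% and 3 lower against 8.66%. The members' share was larger than the background in this comparison, and their median absolute log2 fold change was 0.76 against 0.27. With library totals alone the median of all genes moved from -0.01 to -0.16 and the share of called genes that were higher from 55.1% to 21.4%. The count was again 5 members, against 27% of all genes called. DESeq2 and the fit of all 16 libraries also called 5, against 28.1% and 38.6% of all genes. With no filter on low counts it was 5 against 10.9%, so the gap to the background depended on the fit. The calls depended on single libraries, as did those of all genes. None of the 10 was called without library 12, where the 5 adjusted p lay between 0.0540 and 0.0934 and 2.41% of all genes were called. Without library 11 it was 1 (Per2) against 3.02% of all genes, and without library 9 it was 2 (Per2 and Cry2) against 2.78%. Without library 3 there were 2 calls (Arntl and Per2) against 8.15% of all genes. Without library 2 or 10 there were 3 (Arntl, Per2 and Cry2 each time) against 12% and 22.6% of all genes. Without library 4, Per3 was the 1 member lost, with 14.5% of all genes called, and without library 1 none of the 5 was lost, with 27.7% called. The fitted log2 fold changes of these 5 genes kept their direction, with Arntl between 1.40 and 1.90 and Per2 between -1.89 and -1.35 over 13 alternatives. Leaving out library 10, whose Per3 was 28.4 CPM, moved Per3 to -0.89 (adjusted p = 0.0633) and Npas2 to 2.23 (adjusted p = 0.0522). Among members not called, Per1 moved to 0.24 (adjusted p = 0.0516), Clock to 0.32 and Cry1 to -0.30.

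Whether sepsis moved the members differently under the anesthetics was tested as an interaction in 1 fit of all 16 libraries, and none of the 10 was called by edgeR or by DESeq2. An unadjusted p below 0.05 was found for 2 members. Per2 responded by a further -1.0 ± 0.41 on the log2 scale under isoflurane (adjusted p = 0.165). Cry2 did so by -0.75 ± 0.27 (adjusted p = 0.120). The response of Arntl differed by -0.04 ± 0.54, the fitted rises being 1.73 and 1.75. Npas2 had the largest positive difference, 0.90 ± 0.86 (adjusted p = 0.526), and Clock was at -0.56 ± 0.32 (adjusted p = 0.297). Per1 at -0.14 ± 0.21, Per3 at -0.40 ± 0.32, Cry1 at -0.33 ± 0.38, Nr1d1 at 0.40 ± 0.33 and Nr1d2 at 0.09 ± 0.14 were not called. Across all 10621 genes 2.72% were called, 1.66% higher and 1.06% lower. Without library 1, Per2 at -1.32 (adjusted p = 0.0373) and Cry2 at -0.96 (adjusted p = 0.0201) passed, 2 of 10 members in a fit where 15.1% of all genes were called. Without library 10 the values were -0.78 for Per2 and -0.59 for Cry2, with adjusted p of 0.233 and 0.161. Clock, Per3, Cry1 and Per1 then moved to -0.27, -0.24, -0.15 and -0.008, and Nr1d2 to 0.20.

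**Figure D2:**
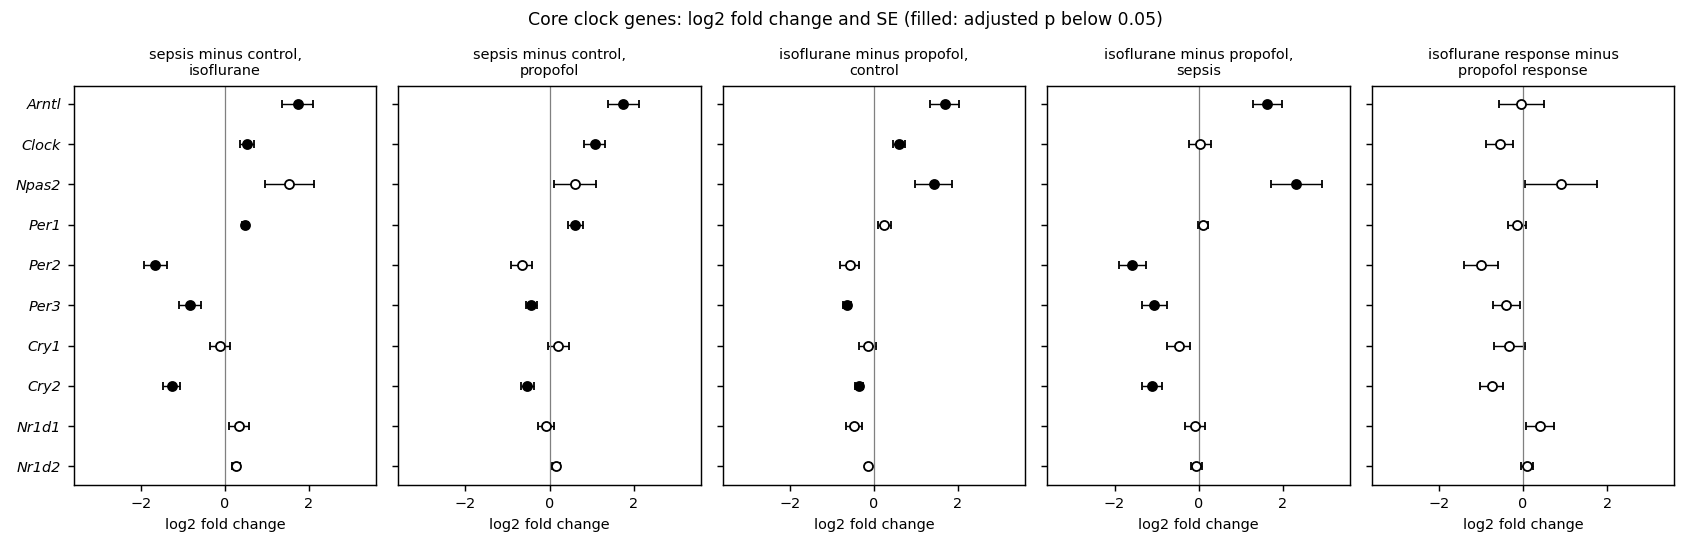
Log2 fold change (x axis) with its SE for each core clock gene (y axis) in the 4 comparisons of groups and in the interaction, filled where the adjusted p was below 0.05. Arntl lay between 1.63 and 1.75 in the 4 comparisons and at -0.04 in the interaction, and Per3 and Cry2 lay below 0 in all 5.

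Since a ratio of reads of 2 genes within a library needs no scaling between libraries, Arntl was also set against repressor genes in the same library. The ratio carries the lengths of the transcripts, so it is compared between libraries and not read as a ratio of molecules. Arntl reads over Per2 reads came to 0.865, 0.322, 0.611 and 0.709 in isoflurane control and 1.57, 5.08, 12.8 and 13.1 in Isoflurane-Sepsis. They came to 0.226, 0.0587, 0.0450 and 0.259 in propofol control and 0.995, 0.449, 0.819 and 0.619 in Propofol-Sepsis. Isoflurane-Sepsis and propofol control each lay apart from the other libraries, on opposite sides, and isoflurane control and Propofol-Sepsis overlapped. Arntl over Cry2 gave the same order, with means of 0.684 ± 0.216, 6.26 ± 4.05, 0.165 ± 0.105 and 0.838 ± 0.282 in isoflurane control, Isoflurane-Sepsis, propofol control and Propofol-Sepsis. Library 10 had the lowest value of its group in both ratios, and without it the Propofol-Sepsis means were 0.811 ± 0.188 for Arntl over Per2, in place of 0.721 ± 0.237, and 0.927 ± 0.268 for Arntl over Cry2. Arntl over Nr1d1 also lay apart in Isoflurane-Sepsis, at 0.185 to 0.808, and in propofol control, at 0.0135 to 0.0462. Isoflurane control, 0.149 ± 0.030, and Propofol-Sepsis, 0.120 ± 0.016, overlapped there too, with their means in the other order. Ratios of the pairs without Arntl did not show this pattern. Clock over Cry2 overlapped between the septic groups, at 1.05 or more in Isoflurane-Sepsis and up to 1.11 in Propofol-Sepsis. Npas2 over Per3 ran from 0.0533 to 1.44 in Isoflurane-Sepsis and overlapped isoflurane control and Propofol-Sepsis.

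**Figure D3:**
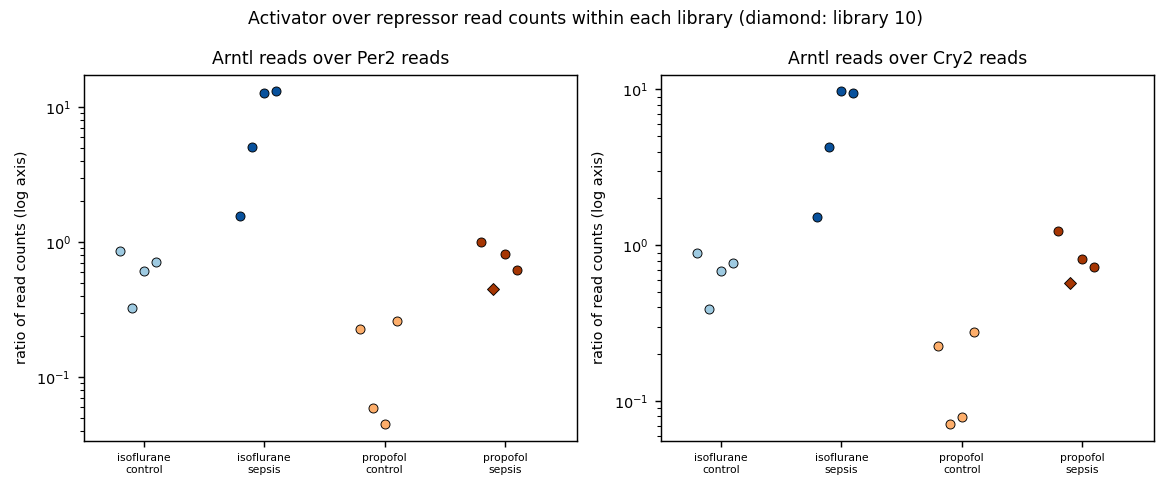
Reads of Arntl over reads of Per2 (left) and of Cry2 (right) in each library (log y axes) by group (x axis), library 10 as a diamond. Arntl over Per2 ran from 0.0450 in a propofol control to 13.1 in an Isoflurane-Sepsis library, and isoflurane control and Propofol-Sepsis overlapped.

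The septic isoflurane libraries also differed among themselves, and several members moved together there. Library 1 had the lowest Arntl, Clock and Npas2 of its group and the highest Per2, Per3, Cry1, Cry2 and Nr1d2. Its Arntl of 12.3 CPM was the nearest to the controls, as was its Per2 of 7.83 CPM. It also had the fewest neutrophil and monocyte marker reads of the group, 34.3 CPM against 70.4, 111 and 94.8 CPM in libraries 2 to 4, and the part of those cells in the clock values was not tested. The median coefficient of variation over the 10 members was 12.4% in isoflurane control, 38.4% in Isoflurane-Sepsis, 27.5% in propofol control and 20.2% in Propofol-Sepsis. Over all 10621 genes it was 6.92%, 16.9%, 10.2% and 11% in the same order, below the median of the members in each group. Nr1d2 was the steadiest member in both control groups, at 5.34% and 4.57%, and Npas2 the least steady at 34.0% and 77.1%. In Isoflurane-Sepsis Per1 was the steadiest, at 4.10%, with 78.0 CPM in library 1 and 78.2 CPM in library 4.

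A wider list of 25 genes around the loop was read from the same fits, of which 20 were analysed here and 18 were tested. Among the 20, Rorb was at 0 in every library, and Arntl2 fell below the filter. Under isoflurane 8 of 18 were higher and 3 lower with sepsis, against 25.7% and 24.4% of all genes. Under propofol 4 were higher and 3 lower, against 20.4% and 21.7%. Between the controls 5 were higher and 3 lower, against 21.6% and 21.7%. Between the septic groups 4 were higher and 1 lower, against 10.6% and 8.66%. Dbp, a transcription factor driven by E-boxes and the best-known output of the liver clock, fell most. It was at 37.9 to 52.4 CPM in isoflurane control, 1.35 to 14.5 CPM in Isoflurane-Sepsis, 93.3 to 116 CPM in propofol control and 23.6 to 30.1 CPM in Propofol-Sepsis, 4 ranges that did not overlap. Its log2 fold changes were -2.72 ± 0.53 and -1.91 ± 0.10 with sepsis under isoflurane and propofol (adjusted p = 0.00308 and 4.11e-06) and -1.23 ± 0.10 between the controls (adjusted p = 1.38e-05).

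Rora, the receptor that competes with Nr1d1 and Nr1d2 to activate Arntl, rose with sepsis. It was at 4.76, 12.5, 34.9 and 10.0 CPM in Isoflurane-Sepsis against 2.65 to 2.95 CPM in isoflurane control, a log2 fold change of 2.52 ± 0.55 (adjusted p = 0.00512). Under propofol it was at 3.8, 6.34, 3.39 and 2.76 CPM in Propofol-Sepsis and at 1.56, 1.98, 2.83 and 1.55 CPM in propofol control, a log2 fold change of 1.04 ± 0.30 (adjusted p = 0.0210). Library 10 was the highest of these 8, and without it the value was 0.71 (adjusted p = 0.0307). The call was lost without library 13, 14 or 16 (adjusted p = 0.0560, 0.0511 and 0.0560) and in the fit of all 16 libraries (adjusted p = 0.112). Nfil3, which represses at the D-boxes that Dbp activates, rose under isoflurane by a log2 fold change of 1.51 ± 0.32 (adjusted p = 0.00490). Under propofol Nfil3 rose by 0.90 ± 0.25 (adjusted p = 0.0167), a call lost without library 14 (adjusted p = 0.0502). It was also higher in isoflurane than in propofol control, at 0.98 ± 0.21 (adjusted p = 0.00406). Its interaction, 0.59 ± 0.44, was not called (adjusted p = 0.415). Between the septic groups Rora at 1.94 ± 0.57, Nfil3 at 1.57 ± 0.34 and Bhlhe40, an E-box repressor, at 1.08 ± 0.23 were higher under isoflurane and Dbp at -2.05 ± 0.54 was lower (adjusted p = 0.0432, 0.0198, 0.0204 and 0.0326). None of these 4 was called there without library 9, 11 or 12, fits in which 2.78%, 3.02% and 2.41% of all genes were called. Without library 3, which had the highest Rora, the Rora value was 1.16 (adjusted p = 0.0901) and that of Dbp -1.81 (adjusted p = 0.0779), and both also missed the threshold without library 2. Rora missed it as well without library 4 (adjusted p = 0.0517) and with no filter on low counts (adjusted p = 0.0529). In the interaction 1 of 18 was called, against 2.72% of all genes. It was Prkaa2, a catalytic subunit of the AMP-activated kinase, at -0.65 ± 0.16 (adjusted p = 0.0424). That name was given after its value was seen, since the rule for naming asked for a log2 fold change beyond 1, and the call was lost with 13 of the 16 libraries left out in turn.

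**Figure D4:**
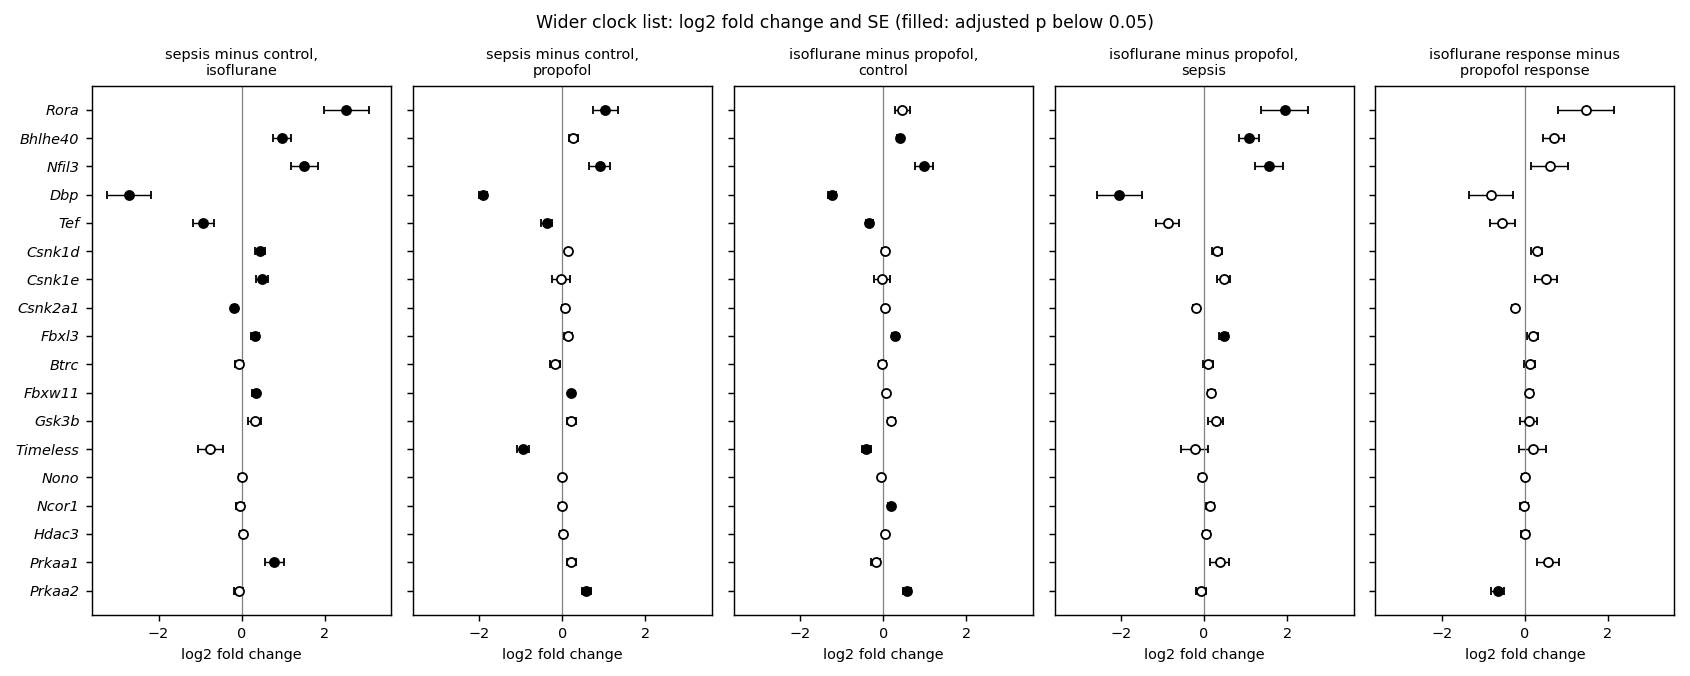
Log2 fold change (x axis) with its SE for the 18 tested genes of the wider clock list (y axis) in the 4 comparisons of groups and the interaction, filled where the adjusted p was below 0.05. Dbp lies farthest left, at -2.72 with sepsis under isoflurane, and Rora farthest right, at 2.52.

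The genes whose levels were most like those of Arntl over the 16 libraries, by Pearson's r of log2 CPM among 8866 genes and leaving out the members and the wider list, were Mtmr12, Hps4, Tspan14, Tnk2 and Mark4, with r of 0.965, 0.956, 0.956, 0.955 and 0.954. After group means were taken off, r was 0.853, 0.826, 0.772, 0.759 and 0.733. Tnk2, a cytoplasmic tyrosine kinase, for example had means of 55.6 ± 9.93, 128 ± 32.2, 27.5 ± 8.15 and 58.5 ± 9.17 CPM in isoflurane control, Isoflurane-Sepsis, propofol control and Propofol-Sepsis. For Nr1d1 the nearest genes were Bcl9l, Tbx3, Usf2, Cdc73 and Stac3, with r of 0.820, 0.797, 0.781, 0.775 and 0.759 and within-group r of 0.816, 0.792, 0.759, 0.842 and 0.768. These values describe 16 points that share groups, pools and libraries.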

How the data were processed

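For each of the 16 libraries the authors deposited counts, that is whole numbers of reads per gene symbol without normalization, from polyadenylated RNA prepared with a kit that keeps the strand. STAR and the build rn5 are named in the submitters' processing notes, while the sources used here give neither the counting program, nor its strand setting, nor the annotation. Entries for reads outside genes (21.6% to 25.4% of all reads) or on more than 1 gene (1.07% to 1.35%) were left out of library sizes. No libraries agreed within sampling noise. Groups came from the sample labels.

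Tests used edgeR 4.0.16 in R 4.3.3: TMM scaling, the filterByExpr filter (at least 10 reads, 15 in total), the quasi-likelihood test, and Benjamini-Hochberg adjustment over all genes tested, with an adjusted p below 0.05 called. Each comparison was fitted on its 8 libraries, and the interaction on all 16. The SE is the absolute log2 fold change divided by the square root of F. The comparisons of anesthetics use the same libraries as those of sepsis, so they are not independent of each other. P-values measure the spread between pools. The statistics were tested on simulated data. Alternatives were RLE size factors, library totals alone, no filter, 1 fit of all libraries, DESeq2 1.42.0 and each library left out, and for the wider list these were added after the data were seen. All members are named in every comparison, and genes of the wider list where called at a log2 fold change beyond 1 in size. The members, lists and rules were chosen with earlier results of these data known. Likeness used log2 CPM with a prior count of 2 in genes with a mean of at least 1.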

Additional observations from a re-analysis of the deposited data

Results flagged for a closer look

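In 60 sets of 4 libraries (10 members and 5 genes of the wider list in 4 groups) the gap of the highest or lowest library to its neighbor was set against Dixon's critical value at 95%, which chance passes in about 1 of 20 sets. Per1 in library 10 of Propofol-Sepsis, at 93.4 CPM, stood above the other 3 libraries with a gap of 0.927 of the range, and this is the library with the high brain markers. In library 15 of propofol control, Per2 at 37.2 CPM and Cry1 at 16.2 CPM stood above the other 3, with gaps of 0.862 and 0.837 of the range. The interaction of anesthetic and sepsis was past the threshold for Prkaa2, at -0.65 on the log2 scale (adjusted p = 0.0424), where mean levels were 45.8 and 43.1 CPM in isoflurane control and Isoflurane-Sepsis and 30.7 and 45.5 CPM in propofol control and Propofol-Sepsis.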

How the results depend on the processing

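The 720 values of member fold changes under alternatives kept direction and side of the threshold in 635, passed it newly in 22, missed it in 43 and changed sign in 20. The counts of 6, 5, 5, 5 and 0 called members were within 1.5 times of the reported ones except as follows. Between the controls, 8 were called with library totals alone, where 48.1% of all genes were called. With all 16 libraries in 1 fit it was 2, where 26.3% of all genes were called. With 1 library left out, the count ran from 4 to 7 under isoflurane, from 4 to 6 under propofol, from 4 to 7 between controls, from 0 to 5 between septic groups and from 0 to 2 in the interaction. The share of all genes called in these fits ran from 39.7% to 54.2%, 33.5% to 41.3%, 35.8% to 41.5%, 2.41% to 27.7% and 0.504% to 15.1% in the same order. For the wider list, the fit of all 16 libraries called 4 between controls and 9 between septic groups, against 26.3% and 38.6% of all genes. DESeq2 called 8 between septic groups and 2 in the interaction, against 28.1% and 7.97%. No filter called 0 in the interaction, against 1.19%. With 1 library left out, the wider list gave 4 to 7 under propofol, 0 to 8 between septic groups and 0 to 6 in the interaction. The shares of all genes in these fits are those given for the members.

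No value that was called changed sign. Between the septic groups, library totals alone gave -0.12 for Clock and -0.044 for Per1. Signs changed with 1 library left out for Cry1 under isoflurane (-0.32 to 0.078) and between controls (-0.27 to 0.15), Nr1d1 under propofol (-0.28 to 0.045), Clock (-0.14 to 0.32), Nr1d1 (-0.35 to 0.087) and Nr1d2 (-0.12 to 0.057) between septic groups, and Arntl (-0.48 to 0.23) and Per1 (-0.26 to 0.010) in the interaction, and for Prkaa2 under isoflurane (-0.14 to 0.0011) and between septic groups (-0.14 to 0.013). The cause was not tested. In the same fits with 1 library left out, the share of all genes called ran from 2.41% to 27.7% between septic groups and from 0.504% to 15.1% in the interaction, against 19.3% and 2.72% with every library. No paired analysis was possible because the library numbers run from 1 to 16 and no number is shared between groups. Depth limits Npas2 most, with 4 to 189 reads a library.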
